A study of Mus musculus with 4 samples.

Results

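Jmjd1c sites are the regions of the mouse genome at which chromatin precipitated with an antibody against Jmjd1c was enriched over chromatin precipitated with IgG. All 8078 regions of the deposited Jmjd1c list were taken, of 36793 in the site lists of Jmjd1c, Carm1 and Med1 together. Of these, 8074 lie on nuclear chromosomes and are described here against the genes of the GENCODE vM1 annotation, and 4 lie in the mitochondrial genome. Every library came from untreated NS5 cells, 1 line of mouse neural stem cells (NSCs) grown with EGF and FGF2, whose chromatin was fixed with disuccinimidyl glutarate and then formaldehyde. The antibodies were against Jmjd1c, Carm1 or Med1, with normal rabbit IgG as control, and there was 1 library for each, so there is no replicate error and no p-value is given. All 3 lists were called by the authors against the same IgG library, and intervals (95%, Wilson for shares and Newcombe for differences of shares) cover the number of sites or genes only. The list gives a start and an end in the build mm9 but no summit, height or significance, so width is its only measure of size. The depth of the libraries is unknown, as no read totals were at hand.

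Jmjd1c is a protein of the Kdm3 family with a JmjC domain, the fold that in related enzymes removes methyl groups from histone lysines, and it has been described as a demethylase of histone H3 lysine 9, whose methylation marks silent chromatin. It is known to interact with the Mediator complex, which links transcription factors at enhancers to RNA polymerase II at promoters. A site near a gene does not show that the gene is expressed or regulated there.

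The DNA at the middle of Jmjd1c sites is shown for 8 of the genes with the most sites, because the description of single loci further on turns on them. For each gene the middle 120 bases of its widest site outside promoters and exons were read from the plus strand of NCBIM37 (mm9). Capitals mark matches on either strand to an E-box (CAGNTG, the site of bHLH factors such as Tcf4), to the NFI core (TTGGC) or to a SOX motif (ACAAAG or ACAATG).
Rps24 chr14:25746121-25746240: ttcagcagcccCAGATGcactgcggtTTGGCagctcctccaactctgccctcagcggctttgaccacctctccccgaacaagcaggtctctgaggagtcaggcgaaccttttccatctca
Tns3 chr11:8346116-8346235: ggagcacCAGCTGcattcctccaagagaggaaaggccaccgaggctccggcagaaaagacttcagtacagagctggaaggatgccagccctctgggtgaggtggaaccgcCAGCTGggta
Auts2 chr5:132705716-132705835: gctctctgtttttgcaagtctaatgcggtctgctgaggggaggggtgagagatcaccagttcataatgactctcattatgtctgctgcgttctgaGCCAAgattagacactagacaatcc
E130114P18Rik chr4:97292908-97293027: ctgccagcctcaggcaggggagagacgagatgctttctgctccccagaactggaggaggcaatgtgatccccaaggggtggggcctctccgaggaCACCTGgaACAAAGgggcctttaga
Sipa1l1 chr12:83387186-83387305: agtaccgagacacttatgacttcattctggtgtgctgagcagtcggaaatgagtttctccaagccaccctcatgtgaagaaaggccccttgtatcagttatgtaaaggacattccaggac
Plxna2 chr1:196440110-196440229: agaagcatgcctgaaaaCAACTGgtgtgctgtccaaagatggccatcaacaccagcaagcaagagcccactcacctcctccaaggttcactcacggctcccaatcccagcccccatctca
Rnf144a chr12:26797650-26797769: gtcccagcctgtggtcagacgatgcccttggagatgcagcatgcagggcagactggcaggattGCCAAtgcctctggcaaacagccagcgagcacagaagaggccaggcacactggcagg
Nfib chr4:81950465-81950584: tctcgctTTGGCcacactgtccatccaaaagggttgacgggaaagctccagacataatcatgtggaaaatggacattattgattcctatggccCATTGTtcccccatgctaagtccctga
Each of these stretches but that of Sipa1l1 holds a match to 1 or more of the 3 motifs. Such matches are common elsewhere too. Of windows 5 kb from sites outside promoters, reaching 50 bp either way, 22.3% held an E-box and 15.3% TTGGC. SOX motifs stood in slightly fewer of them. The share of windows with any of the 3 motifs was not computed, so the count for these 8 genes has no background. The Tns3 site holds 2 copies of CAGCTG. A match describes the letters only and is not a bound site.

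Outside promoters, the motif with the highest ratio of its share at Jmjd1c sites to that in flanks among the E-box, NFI and SOX motifs was the E-box CAGCTG (3.28), while TTGGC had the larger difference (23.6 points, against 21.1). In windows that reach 100 bp to either side of the midpoint, CAGCTG stood at 30.4% of 5970 sites (29.2 to 31.5%), against 9.27% of windows 5 kb to either side and 7.26% of all 12728300 windows of that length in the genome. The other E-boxes, which like CAGCTG are among the matches to CAGNTG, behaved differently. CAGATG stood at 22.3% of sites and 15.6% of flanking windows, while CAGGTG stood at 11.6% of sites and 13.5% of flanks, a difference of -1.95 points (-2.96 to -0.917). E-boxes as a whole (CAGNTG) stood at 57.9% of sites, against 40.2% of flanks and 36.8% of genome windows. The NFI core TTGGC stood at 52.4% of sites, against 28.8% of flanks and 27.2% of genome windows, and the SOX motif at 39.6% of sites, against 26.1% of flanks and 28.5% of genome windows. The octamer ATGCAAAT, bound by POU factors, was rare but also stood more often at sites (2.75%) than in flanks (1.27%). AGGTCA, the core bound by nuclear receptors, stood less often at sites (10.8%) than in flanks (12.9%), and the AP-1 motif TGANTCA at 7.62% of sites against 6.17% of flanks. The median GC content was 50.2% at these sites, 44.8% in their flanks and 41.8% over all genome windows, and its part in the motif shares was not tested.

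At promoters other motifs led. Of 2104 sites at promoters, 31.8% (29.8 to 33.8%) held GGGCGG, the box of SP and Kruppel-like factors, against 3.43% of windows 5 kb away, and 18.5% held the ETS core CCGGAA, against 1.98% of flanks. Both were rarer outside promoters but stood more often at sites than in flanks there too. GGGCGG stood at 6.70% of those sites against 2.95% of flanks (ratio 2.27), and CCGGAA at 5.18% against 1.94% (2.67). The NFI core and CAGCTG also stood more often at promoter sites than in their flanks, with 39.1% against 29.0% and 17.0% against 9.20%. SOX motifs went the other way, with 18.5% of promoter sites and 26.2% of their flanks, and E-boxes as a whole did not stand out (39.6% of sites and 40.4% of flanks). Their median GC content was 58.7%, against 45.3% in the flanks. The ratio of observed to expected CpG was 0.687, against 0.176 in the flanks, and its part in these shares was not tested. The cyclic AMP response element TGACGTCA stood at 26 promoter sites (1.24%, 0.845 to 1.80%), against 0.119% of flanks and 0.108% of genome windows. It is shown in capitals for the 4 widest of these sites whose 40 bases lie outside exons, a choice made after their values were seen, with bases from the plus strand.
Dlg4 chr11:69842839-69842878: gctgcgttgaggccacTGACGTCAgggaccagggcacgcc
Wsb1 chr11:79068212-79068251: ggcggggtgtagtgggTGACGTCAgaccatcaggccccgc
Mrpl16 chr19:11844840-11844879: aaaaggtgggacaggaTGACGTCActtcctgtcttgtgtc
Zfp58 chr13:67627112-67627151: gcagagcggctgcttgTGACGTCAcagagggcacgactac
These promoters belong to Dlg4, which encodes the postsynaptic scaffold PSD-95, to Wsb1, a substrate receptor of a ubiquitin ligase, to the mitochondrial ribosomal protein gene Mrpl16 and to the zinc finger gene Zfp58. The midpoints of their Jmjd1c sites lay -473, -27, 4 and -29 bp from the TSS.

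The motif letters were most frequent within 100 bp of the midpoint of distal sites. Per 100 sites outside promoters, the NFI core had 18.5 and 19.8 matches in the 50 bp before and after the midpoint, against 8.31 to 9.61 in bins 500 bp or more away. The SOX motif had 13.8 and 13.6 matches there, against 6.92 to 8.64 in those bins, and the E-box 21.5 and 23.5, against 12.9 to 14.4. At promoters GGGCGG was instead most frequent beside the midpoint. It had 14.5 matches per 100 sites from 200 to 150 bp before the midpoint and 14.6 from 150 to 200 bp after it, against 10.6 and 10.1 in the 50 bp on either side of it.

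**Figure D1:**
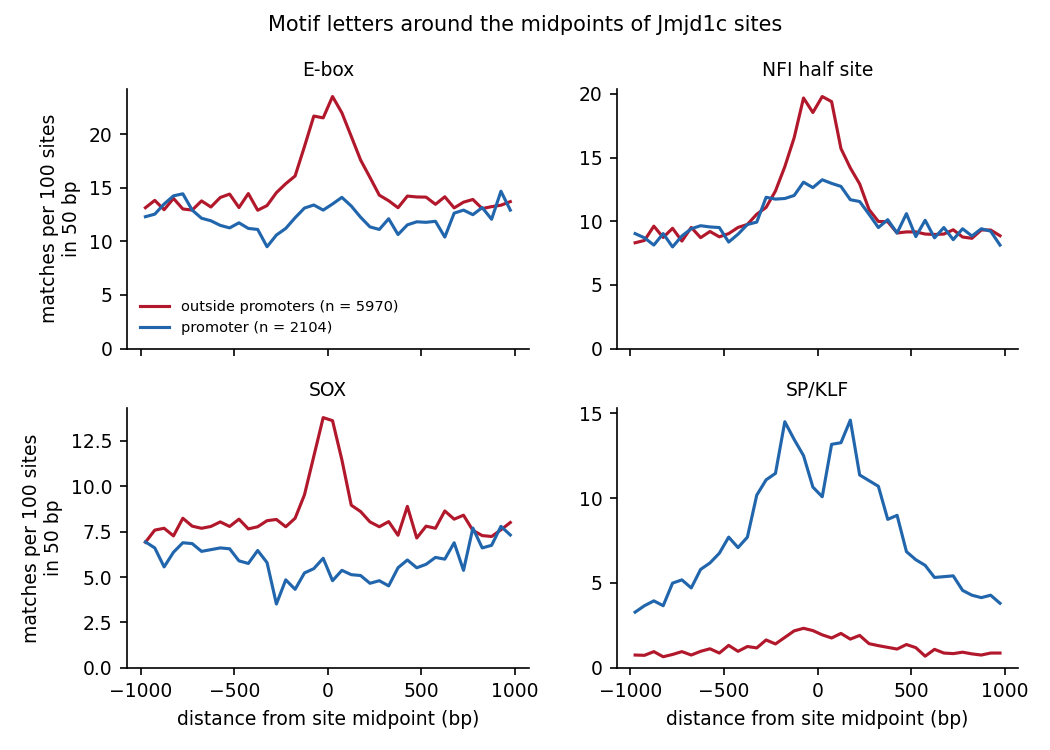
Matches to 4 motifs per 100 sites in bins of 50 bp (vertical axes, starting at 0) by distance from the site midpoint in bp, for Jmjd1c sites outside promoters (red, n = 5970) and at promoters (blue, n = 2104). Outside promoters the E-box, the NFI core and the SOX motif are most frequent within 100 bp of the midpoint, while GGGCGG at promoters has its highest bins, 14.5 and 14.6, farther out on either side of it.

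For the SOX motif, CAGCTG and the NFI core, the shares differed less among the kinds of distal site compared here than between sites and flanks. For CAGGTG they differed more, with 15.6% in super enhancers (SEs), 12.3% in typical enhancers and 9.79% outside both. The flanks of these sets held CAGGTG at 15.6%, 13.5% and 13.1%, and in SEs sites minus flanks was 0.0305 points (-3.47 to 3.76). SOX motifs stood at 40.4% of sites in SEs, 42.7% in typical enhancers and 35.9% outside both, and CAGCTG at 31.7%, 31.9% and 28.3%. At distal sites that overlap a Carm1 site the SOX share was 42.0%, against 37.7% at those that do not, and the NFI core stood at 54.8% against 50.4%. When distal sites were split into 4 equal groups by width, the SOX motif stood at 37.8% of the widest group (35.4 to 40.3%) and 40.3% of the narrowest, and CAGCTG at 31.8% and 26.9%.

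Most Jmjd1c sites lay away from promoters. A site was counted at a promoter if its midpoint lay no more than 1.5 kb from a transcription start site (TSS) annotated for a protein-coding gene, and otherwise in an exon, an intron or between such genes. Promoters held 2104 sites (26.1%), 5.87 times their 4.44% share of the genome. Introns held 2636 sites (32.6%), close to the 33.3% of the genome that they cover, and 3190 sites (39.5%) lay between genes, which cover 60.1%. Exons beyond promoters held only 144 sites (1.78%, 1.52 to 2.10%), of which 62 were in coding sequence, 68 in UTRs and 14 in noncoding exons. Of the intronic sites 1116 lay in a first intron (42.3%, 40.5 to 44.2%), and first introns make up 35.6% of intron bases.

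In the place of its sites the Jmjd1c list resembled that of Carm1 more than that of the Mediator subunit Med1. Carm1 is an arginine methyltransferase of histones that also interacts with Mediator. More Jmjd1c sites overlapped a Med1 site (65.8%) than a Carm1 site (40.5%), but Med1 sites are more numerous and wider. Of the 8756 nuclear Carm1 sites 25.8% lay at promoters, and Jmjd1c minus Carm1 was 0.237 points (-1.09 to 1.56). Introns held more of the Jmjd1c sites (32.6% against 30.4%) and intergenic DNA fewer (39.5% against 42.2%), by 2.25 points (0.841 to 3.65) and -2.66 points (-4.14 to -1.17). The promoter share was lower for Jmjd1c than for Med1, of whose 19956 sites 45.8% lay at promoters, by -19.8 points (-20.9 to -18.6). The comparison with Carm1 depends on which sites are used: among the 5000 widest sites of each list the promoter difference was -4.12 points (-5.79 to -2.45), and it was -1.13 points (-2.50 to 0.247) without sites in repeated sequence, which was added after the data had been seen. The threshold of the calls is not settled, since the methods give the default while the names of the Jmjd1c and Carm1 lists carry numbers that differ, and its part in these shares was not tested.

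**Figure D2:**
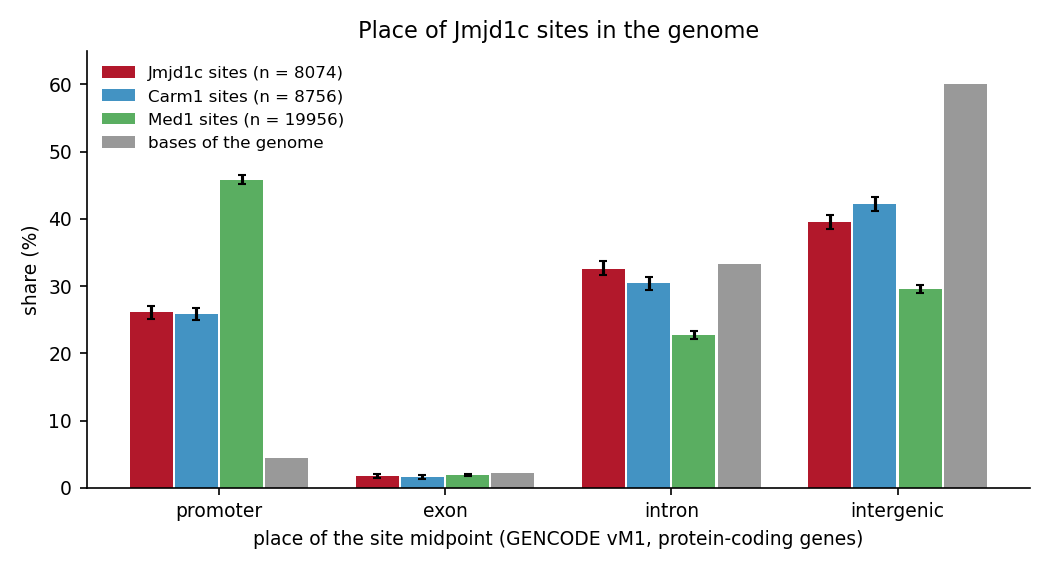
Share of sites (%, vertical axis) with the midpoint at promoters, in exons, in introns and between genes, for Jmjd1c (red), Carm1 (blue) and Med1 sites (green), with the share of genome bases in grey and 95% Wilson intervals as error bars. Jmjd1c sites are at 26.1% in promoters, above the 4.44% of the genome, and at 39.5% between genes, below the 60.1% of the genome.

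At promoters the Jmjd1c sites sat on the TSS. Of the 2104 promoter sites, 1163 (55.3%) had the midpoint within 200 bp of a TSS, which is 14.4% of all sites and 19.5 times the 0.740% of the genome that lies so close. The median signed distance of promoter sites was -9.5 bp, and 47.9% of them lay downstream of the TSS. TSSs of both strands were within reach of 229 promoter sites (10.9%, 9.62 to 12.3%). From 1.5 to 5 kb of a TSS the share dropped to 6.79% of sites, below the 7.88% of the genome there, and from 10 to 50 kb it was 29.7% against 29.4% of the genome. Only 15.6% of sites lay at 100 to 500 kb, 0.579 times the share of the genome there, and 1.62% beyond 500 kb, against 9.03%. The median distance over all sites was 17951.5 bp (quartiles 1199 and 63852), against 18312 bp for Carm1 and 3163 bp for Med1. Distal sites had a median distance of 35199 bp, and 45.5% of them lay upstream of the nearest TSS.

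The site farthest from a coding gene was 2140 kb upstream of the cadherin gene Cdh20, at chr1:104524786-104525082, and is 297 bp wide. Next came sites 1990 kb upstream of Gm10110, 1766 kb upstream of the glucose-6-phosphate dehydrogenase gene G6pd2, 1725 kb upstream of the activin receptor gene Acvr2a and 1623 kb upstream of the kinase gene Map3k7. All of the 5 lie outside enhancer regions. A Med1 site overlaps the one upstream of Acvr2a and a Carm1 site those of Cdh20, G6pd2 and Map3k7, and the nearest start of any annotated gene, coding or not, was between 68370 and 479248 bp away.

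Jmjd1c sites were narrow. The median width was 312 bp (quartiles 262 and 406) and the smallest 243 bp, against medians of 269 bp for Carm1 and 1502 bp for Med1. At promoters the median was 288 bp, against 322 bp outside them, a difference of -34 bp. Intergenic (325 bp) and intronic sites (320 bp) were alike in width. Width went with enhancers: the median was 376 bp in SEs, 341 bp in typical enhancers and 292 bp outside both. It also went with Carm1, with 374 bp where a Med1 and a Carm1 site overlapped, 338 bp with Carm1 only, 293 bp with Med1 only and 285 bp with neither. In 4 equal groups of the list, from the narrowest to the widest sites, the share at promoters was 33.4%, 30.1%, 21.9% and 18.8%, and the share in SEs 3.96%, 5.65%, 7.53% and 13.7%. A wider site meets an overlap of 1 bp or more more easily, and of the 4451 sites outside both kinds of enhancer 1949 lay at promoters. The part of either in these widths was not tested. How far width follows the strength of enrichment was not tested, because the list holds no height.

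**Figure D3:**
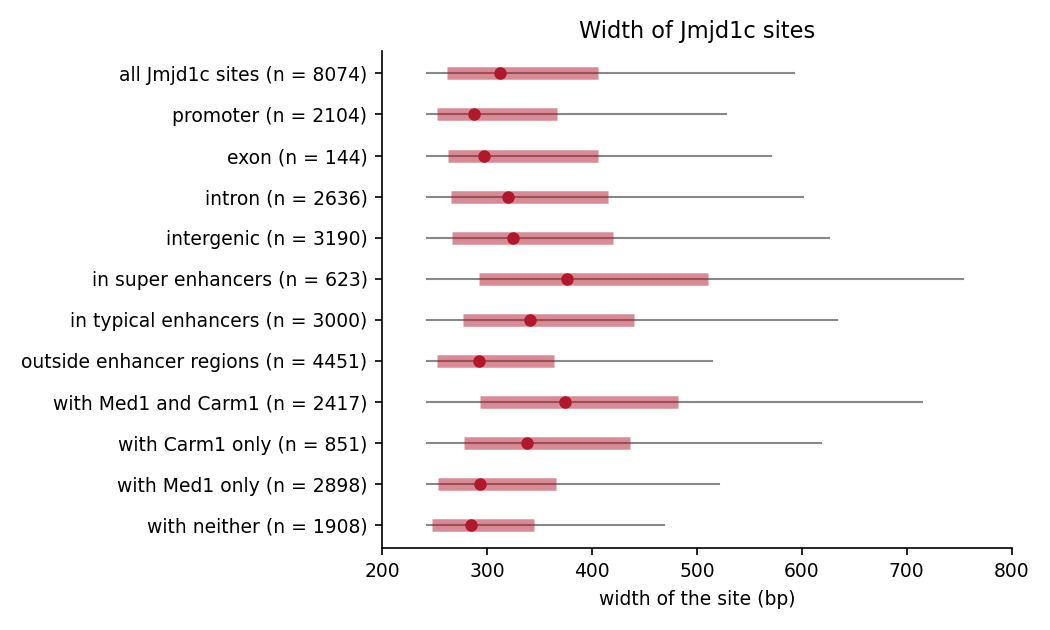
Width of Jmjd1c sites in bp (horizontal axis) for all sites and for sites by place, enhancer region and overlap with Med1 and Carm1 sites, with the median as a point, the quartiles as a bar and the 5th to 95th percentile as a line. Sites in super enhancers (median 376 bp) and those with both Med1 and Carm1 (374 bp) are the widest sets, and sites with neither (285 bp) the narrowest.

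Sites of 500 bp or more numbered 891, and 145 of these lay at promoters (16.3%), but only 19 sites reached 1000 bp. The widest was 3146 bp, at chr1:24618547-24621692 beside Gm10222, and 98.2% of its 32-base words also stand in the mitochondrial genome. The next were a site of 1671 bp at Gm10722 on chromosome 9 and one of 1357 bp at chr15:90252756-90254112, 199 kb downstream of Alg10b, which encodes a glucosyltransferase of N-glycan assembly. Traf3ip2, an adaptor of the interleukin-17 receptor, had a site of 1314 bp in an SE 9479 bp downstream of its TSS. Others of the 10 widest were 1295 bp at Gm10715, 1255 bp at 1190002H23Rik, 1178 bp at Gm10800, 1172 bp in Myo3a and 1079 bp at Mapre1, which encodes a protein of growing microtubule ends. The sites of Traf3ip2, 1190002H23Rik and Mapre1 each overlapped a Med1 and a Carm1 site and lay in an enhancer region, whereas those of Gm10222, Gm10722, Gm10715, Gm10800 and Myo3a overlapped a Carm1 site but no Med1 site.

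The Gm10222, Gm10722, Gm10715, Gm10800 and Myo3a sites lie in repeated sequence. A site was called repeated if 50% or more of its 32-base words occur elsewhere in the genome, a measure chosen after seeing the data. This held for 204 Jmjd1c sites (2.53%, 2.21 to 2.89%), against 746 Carm1 sites (8.52%, 7.95 to 9.12%), and for 5 of the 10 widest, 9 of the 25 widest and 11 of the 100 widest Jmjd1c sites. Repeated sites overlapped Med1 sites less often than the others (31.4% against 66.7%) and Carm1 sites more often (121 of 204 against 3147 of 7870). Without them the widest site was 1357 bp. Whether reads at these sites come from other copies of the sequence was not tested.

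Of all sites, 1630 (20.2%, 19.3 to 21.1%) lay in 743 clusters, in which neighbours are no farther apart than the gap over which the authors joined enhancers with ROSE. Most clusters were pairs: 637 held 2 sites, 84 held 3, 17 held 4 and 5 held 5 or more. Clustering was close to that of Carm1 (17.7% of sites) and below that of Med1 (43.2%), which has more sites. Clustered Jmjd1c sites lay in SEs far more often than single ones (22.5% against 3.99%), but SEs are long and were themselves built by joining neighbours. They overlapped Med1 in 75.4% against 63.4% and Carm1 in 47.1% against 38.8%, and were less often at promoters (21.7% against 27.2%).

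The largest cluster held 15 sites at chr9:3000035-3038306, at Gm10722, Gm10715 and other predicted genes at the start of chromosome 9, with no Med1 site and a Carm1 site at each. Without repeated sites the largest cluster held 6 sites and 19.6% of sites were clustered. Bahcc1 had a cluster of 5 sites at chr11:120085206-120123713 (485, 269, 822, 375 and 366 bp). The SE of rank 18 held 2 of them, and none lay in a typical enhancer. The retinoic acid receptor gene Rara had a cluster of 5 at chr11:98803292-98843566 (510, 277, 499, 290 and 336 bp). Of these, 4 were in the SE of rank 7, and the other is nearest to Gjd3. The cluster of 5 at Galm, the galactose mutarotase gene, lay at chr17:80544667-80579607, where it spans 2 typical enhancers, with widths of 310, 382, 506, 288 and 327 bp.

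Sites were not spread evenly over the chromosomes. Chromosome 11 had 860 sites, 7.24 per Mb, which is 10.7% of the list on 4.65% of the genome, and chromosome 15 had 5.14 per Mb. The other autosomes ranged from 2.44 to 4.02 per Mb, and the X chromosome had 0.401 per Mb (65 sites). Per 100 protein-coding genes chromosome 11 had 52.0 sites, within the 21.6 to 54.9 of the other autosomes, chromosome 15 had 64.7 and the X 6.97. Per enhancer region the values were 1.73 on chromosome 11, 1.41 on chromosome 15, 0.706 to 1.08 on the other autosomes and 0.625 on the X. The IgG signal of typical enhancers was in the same order, with medians of 203.4 per kb on chromosome 11, 172 on chromosome 15, 115.2 to 133.7 on the other autosomes and 67.35 on the X. The Carm1 and Med1 lists also had the most sites per Mb on chromosome 11 (7.35 and 15.2) and the fewest on the X (0.870 and 2.73). On chromosome 15 they had 4.67 and 9.27 per Mb, and for Med1 this was below the 10.6 of chromosome 19. The part of the IgG signal in the number of sites was not tested.

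**Figure D4:**
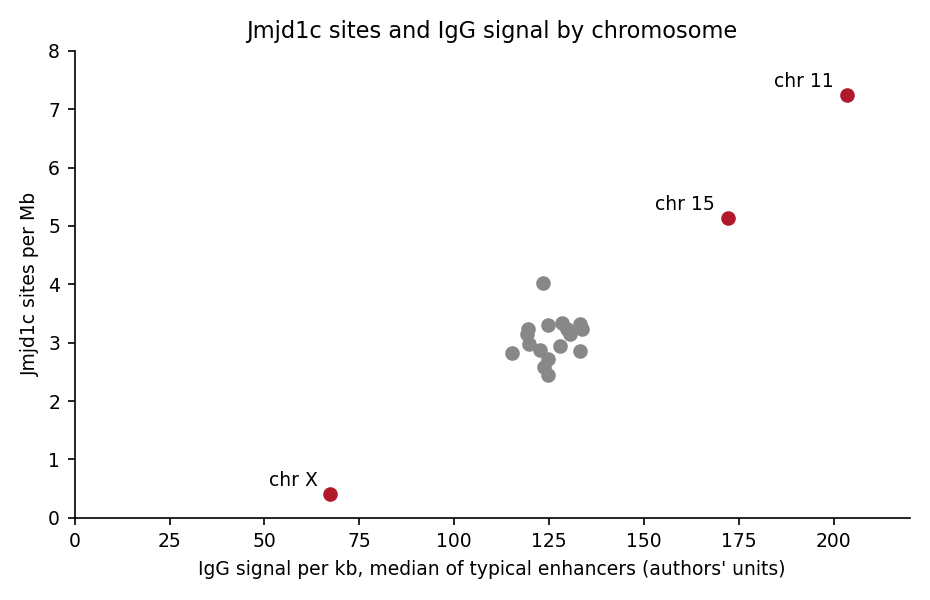
Jmjd1c sites per Mb of chromosome (vertical axis) against the median IgG signal of that chromosome's typical enhancers (horizontal axis, per kb in the authors' units), with 1 point for each of the 19 autosomes and the X. Chromosomes 11 (7.24 sites per Mb) and 15 (5.14) stand above the others and the X (0.401) below, in the same order as their IgG signal.

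In windows of 1 Mb, 1916 of 2649 held a Jmjd1c site (72.3%), and 149 held 10 or more. Of these 149 windows 42 lay on chromosome 11, 17 on chromosome 15 and 10 on chromosome 9. The fullest, with 24 sites, lay on chromosome 11 from 117000001 and holds sites of Sept9, a septin gene, and of Socs3, a feedback inhibitor of cytokine signalling. It was followed by a window of chromosome 15 from 78000001 with 22 sites, 8 of them at promoters, and by a window at Tex14 and Cuedc1 on chromosome 11 with 20.

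Of 22225 protein-coding genes, 2235 (10.1%) had a Jmjd1c site at a promoter and 5102 (23.0%) were the nearest gene of at least 1 site, by distance from the site midpoint to a TSS. Most of these 5102 genes had few: 3483 had 1 site and 976 had 2, while 165 genes (0.742%) had 5 or more and together held 1068 sites (13.2%). Counts by nearest TSS grow with the space between genes. When genes were put into 5 equal groups by territory, the length of DNA nearer to their TSSs than to any other, from the shortest to the longest, 0, 0, 0.0225, 0.225 and 3.46% of genes had 5 or more sites, and 8.73 to 46.9% had any, whereas promoter sites stood at 9.79% of genes in the shortest and 10.9% in the longest group. Genes with a promoter site were also the nearest gene of another site in 21.8%, against 15.5% of genes without one, a difference of 6.38 points (4.64 to 8.21). Among lincRNA genes 128 had a promoter site (10.1%, 8.52 to 11.8%), and 50 of these 131 sites were not also at a coding promoter.

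Zfp608, a zinc finger gene of chromosome 18, had the most sites: 21, from -648 kb (upstream) to 450 kb of its TSS, with widths of 243 to 907 bp. Only 1 lay at its promoter, at -0.833 kb, and 4 in its introns, and 14 lay in typical enhancers and none in an SE. Med1 sites overlapped 9 of the 21 and Carm1 sites 10. With 1209 kb of DNA nearest to its TSS this was 1.74 sites per 100 kb.

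Per length of territory, Socs3 (8.80 per 100 kb, 5 sites) and the LIM domain gene Limd1 (8.59, 7 sites) had the most among genes with 5 or more sites. Socs3 lies on chromosome 11, which had the most sites per Mb (7.24) and the highest IgG signal of typical enhancers (203.4 per kb). Tbl1xr1, which encodes a transducin beta-like protein, had 9 sites, all upstream, from -552 to -141 kb, with widths of 307 to 644 bp, and 7 of them overlapped both Med1 and Carm1.

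Rps24, which encodes a protein of the small ribosomal subunit, was the nearest gene of 13 sites, all of them intergenic, from 9.55 to 470 kb downstream of its TSS. Their widths along chromosome 14 were 319, 253, 727, 287, 291, 243, 453, 437, 533, 473, 803, 562 and 303 bp. Every one overlapped a Med1 site, 5 a Carm1 site, 11 lay in typical enhancers and 1 in an SE. Zmiz1, a coactivator gene of the PIAS family also on chromosome 14, had 10 sites, of which 7 were intergenic, 5 lay in SEs and 9 overlapped Med1.

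Sites in the gene body marked Tns3, Auts2 and Nfib. Tns3, a tensin gene of focal adhesions, had 13 sites, of which 9 were intronic and 1, of 485 bp, was at 0.325 kb from a TSS. Its sites of 408, 287, 246 and 485 bp lay in the SE of rank 66, and all 4 overlapped Med1, whereas Med1 overlapped 2 of the other 9. Auts2, a large gene mutated in neurodevelopmental disorders, had 11 intronic sites of 243 to 964 bp and 1 site 630 kb upstream. Med1 overlapped 5 of these 12 sites and Carm1 8, and none was in an SE. Nfib, a factor of the NFI family, had 10 sites, 7 of them intronic at 34.7 to 195 kb from its TSS with widths of 664, 290, 244, 262, 355, 475 and 341 bp, and all 7 overlapped Med1.

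The proto-oncogene Myc had no site at its promoter or in its body, and 9 sites from 92.1 to 798 kb downstream on chromosome 15. Their widths in that order were 799, 351, 435, 437, 332, 421, 267, 519 and 265 bp. All 9 overlapped a Carm1 site and 7 a Med1 site, and the nearest 3 lay in an SE. Chromosome 15 is also 1 of the 2 with high IgG signal.

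The remaining genes with the most sites were E130114P18Rik and Sipa1l1 with 11 each, Plxna2 and Rnf144a with 10 each, and Chl1 and Gm11678 with 9 each. In E130114P18Rik 5 intronic sites of 548, 604, 316, 280 and 413 bp lay in the SE of rank 8, each with a Med1 and a Carm1 site. Sipa1l1, which encodes a regulator of Rap GTPases at synapses, had 5 sites in SEs, 4 of them 112 to 148 kb upstream, and 2 at promoters (247 and 338 bp). These 4 and another upstream site lie in sequence whose 32-base words all occur elsewhere too, and without repeated sites Sipa1l1 had 6 sites, 1 of them in an SE. Plxna2, a semaphorin receptor, had its widest site (941 bp) 5.85 kb upstream without Med1, and 3 sites of 262, 316 and 607 bp in an SE in its introns. Rnf144a, a ubiquitin ligase gene, and the adhesion molecule gene Chl1 had sites in typical enhancers only or outside enhancers, with widths of 243 to 656 bp and 245 to 987 bp. By gene body in place of nearest TSS, Gm20388 (37 sites) and Fgfr2 (17) came first, but their annotated bodies of 4435 and 3009 kb span other genes.

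**Figure D5:**
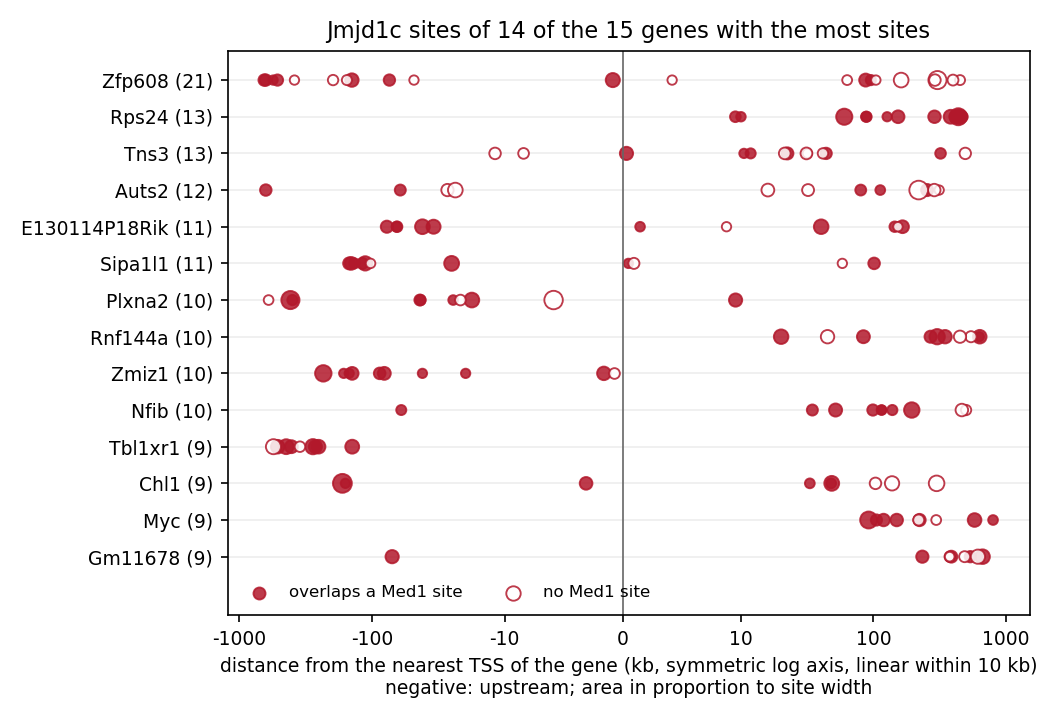
Jmjd1c sites of 14 of the 15 genes with the most sites (rows, number of sites in parentheses) by distance from the nearest TSS of the gene in kb, on a symmetric log axis, with point area in proportion to site width and filled points for sites that overlap a Med1 site. All sites of Rps24 (13) and Myc (9) lie downstream of the gene's TSS, those of Tbl1xr1 (9) upstream, and every Rps24 site is filled.

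Gene lists were compared with the shares over all coding genes, 10.1% with a promoter site and 23.0% with any. Long territories go with high shares of any site, so the share within the longest of the 5 territory groups (46.9% over all genes) is also given for most lists, and the part of territory in the other counts was not tested. Of 25 neural transcription factors 21 (84.0%) had a site and 7 a promoter site, with a median of 2 sites a gene against 0 over all genes. The most were at Nfib (10), Sox2, which keeps neural stem cells undifferentiated (6, the closest 163096 bp from the TSS and 2 in an SE), Sall3 (5, 1 of them at the promoter) and Zbtb20 (5, all in its body and 1 with Med1). In the longest territory group 14 of 16 had a site. Lhx2 and Tcf4 were among those with none. Of the 15 NSC and radial glia genes 10 had a site, led by Sox9 (6), Sox2 (6), the RNA-binding protein gene Msi2 (5, all in SEs in its body) and the glutamate transporter gene Slc1a3 (3), and the 8 in the longest territory group all had one. Hes5, Msi1, Nes, Prom1 and Vim had none. Only Fabp7 and Pax6 of these markers had a promoter site.

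Among signalling genes, 14 of 20 of the EGF and FGF pathway had a site and 4 a promoter site. The ETS factor gene Etv5, a target of FGF signalling, had 6 sites, all with Med1 and 3 in an SE, the ligand gene Fgf1 had 5, all with Med1 and in an SE, Egfr had 4 (1 at the promoter) and Fgfr1 had 3. Of 22 genes of BMP and TGF-beta signalling 14 had a site and 5 a promoter site, led by the receptor gene Tgfbr2 (6) and the effectors Smad3 (4), Smad1 (3) and Smad7 (2). Wnt genes also numbered 14 of 20, with the receptor gene Fzd1 at 7 sites, the feedback gene Axin2 at 5, the ligand gene Wnt7b at 5, all of which overlapped Med1 and Carm1, and the effector gene Tcf7l2 at 4. Notch genes had fewer: 6 of 18, with Notch1 (3), Notch2 (2), the ligands Dll1 (2, 1 at the promoter) and Jag1 (1, of 941 bp). In the longest territory group these lists had a site at 11 of 11 EGF and FGF, 10 of 13 BMP and TGF-beta, 6 of 10 Wnt and 3 of 6 Notch genes.

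Of 36 axon guidance and adhesion genes 27 had a site and 6 a promoter site. Plxna2 (10) was followed by the adhesion molecule gene Ncam1 (7, 3 in an SE) and the semaphorin genes Sema6d (7) and Sema5a (6, all in its body and 1 with Med1), and 26 of the 32 in the longest territory group had a site. Of 25 nuclear receptor genes 9 had a site and 4 a promoter site, with Rora (7), Rara (4, all in an SE), Rxra (4) and Nr2f1 (2), whose wider site of 1001 bp lay at -738494 bp. Of 13 Kruppel-like factors 9 had a site: Klf3 and Klf4 had 4 each, and Klf12 and Klf6 had 3. In the longest territory group 7 of 11 nuclear receptor genes and 7 of 9 Kruppel-like factors had a site. None of the Klf4 sites overlapped Med1 or lay within 116 kb of its TSS. Immediate early and AP-1 genes had a site at 7 of 18, with Myc (9), Jun (3), Ier5 (2) and Ier3 (2), and at 5 of 5 in the longest territory group.

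In lists of differentiated or other cell types the share of genes with a site ranged from 20.0% to 62.5%, against 23.0% of all coding genes. A site was found at 8 of 13 oligodendrocyte lineage genes, with Olig1 at 4 (all with Med1 and Carm1, 3 in an SE), and at 5 of 15 neuronal genes, with 2 at Stmn2, and neither list had a promoter site. Astrocyte genes had a site at 5 of 8, and 3 of the 8 had one at the promoter, among them Aldoc and Gfap, while Slc1a2 and the water channel gene Aqp4 had 2 sites each. In the longest territory group 2 of 3 oligodendrocyte, 3 of 6 neuronal and 2 of 3 astrocyte genes had a site. Pluripotency genes had sites at Klf4 and Esrrb only (2 of 10, 20.0%). Endothelial, microglial and mesodermal genes had one at 3 of 13 (23.1%), with 3 sites at Cdh5. Both shares were near the 23.0% of all coding genes. In the longest territory group each of these lists had a site at 2 of 4 genes, against 46.9% of all genes there. Of the markers that define these cell types, a site was nearest to 6 of 10 of neural stem cells, 1 of 5 of neurons, 3 of 4 of astrocytes, 1 of 4 of oligodendrocytes, 0 of 3 of microglia and 3 of 3 of endothelium. Sites are no measure of expression, so these counts do not check the identity of the cells.

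Histone genes had a promoter site at 28 of 67 (41.8%), against 10.1% of all genes, through 23 distinct sites, since neighbouring histone genes share promoters. Of these 18 lay on chromosome 13, all 23 overlapped a Med1 site and 5 a Carm1 site. Of the 23 sites 13 lie in repeated sequence, and without repeated sites 10 histone genes had a promoter site (14.9%), against 9.83% of all genes. Of 87 respiratory chain genes 13 had a promoter site, and of 80 genes of cytoplasmic ribosomal proteins 7 did, with Rps24 (13), Rpl38 (3), Rpl37a (3) and Rpl29 (2) leading by all sites. None of 1087 olfactory receptor genes had a promoter site and 6 were nearest to any site. Of 24 clustered protocadherin genes 1, Pcdhgc5, had a promoter site, and it had 3 sites in all.

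Among genes for the erasers, writers and readers of H3K9 methylation the gene of Jmjd1c itself had the most sites. Of 11 genes of H3K9 demethylases 4 had a site (36.4%, against 23.0% of all genes): Jmjd1c had 8, Jhdm1d 2, and Kdm3a and Kdm4b 1 each at the promoter. The territory of Jmjd1c is long (1653 kb), and it held 0.484 sites per 100 kb. In the longest territory group 2 of 5 demethylase genes had a site, no higher a share than the 46.9% of all genes there. Of 12 genes of H3K9 methyltransferases and of HP1 proteins 3 had one, a share close to that of all genes, namely Prdm2 (2), Prdm16 (1) and Cbx5 (1). The 8 sites of Jmjd1c lay on chromosome 10 between 66372081 and 66689403, with widths of 290, 306, 348, 664, 359, 378, 260 and 412 bp. One, of 260 bp, was at the promoter at -657 bp, 6 lay upstream between -186648 and -77094 bp and 1 in an exon 8709 bp downstream of a TSS. All 8 overlapped a Med1 site and 4 a Carm1 site. The Med1 gene had 1 site, of 362 bp at -57 bp from its TSS, which overlapped neither a Med1 nor a Carm1 site, and Carm1 had none.

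Jmjd1c sites were compared with the enhancer regions of the authors' table, which are stretches with Ep300 and H3K27ac outside the immediate TSS, joined where close and ranked by Med1 over IgG signal. Of all sites 7.72% lay in an SE and 37.2% in a typical enhancer, and 92.6% of promoter sites lay in neither, as the regions leave out most promoters. A site was present in 369 of 445 SEs (82.9%, 79.1 to 86.1%) and in 2767 of 7644 typical enhancers (36.2%, 35.1 to 37.3%). SEs are longer, and per 10 kb they held fewer sites, 0.804 against 1.25. In 10 equal groups by Med1 rank, from the top, the share of regions with a site was 79.5, 69.2, 55.1, 47.1, 39.9, 32.6, 22.2, 18.2, 12.6 and 11.1%. These shares were not adjusted for region length. Per 10 kb there was no such fall: the top group held the fewest sites (0.860), against 1.149 to 1.498 in the others. The most sites in 1 SE were 8 near Gm6772 on chromosome 12 (rank 6), and SEs in E130114P18Rik (rank 8) and at Cuedc1 (rank 10) held 5 each.

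Typical enhancers with a Jmjd1c site had more Med1 signal per kb than those without one, and more IgG signal. The medians were 466.9 with a site (quartiles 307 and 699) and 308.2 without (202 and 464) for Med1, and 155.3 and 119.1 for IgG. Among regions of 1 to 2 kb the medians were 595 and 333.3 for Med1 and 201.4 and 130.6 for IgG, and among those of 4 to 8 kb 407.7 and 289.25 for Med1 and 133 and 110.3 for IgG. In SEs the values with a site were not higher: 492.2 against 543.0 for Med1 and 126.7 against 134.0 for IgG. Only 76 SEs had no site, and they were shorter (median 11.032 kb, against 15.853 kb with a site). SEs were not compared within classes of length. IgG was the control of the site calls and of the ranking alike, and its part in these differences was not tested.

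As a description, since all lists share the IgG control, 65.8% of Jmjd1c sites overlapped a Med1 site by 1 bp or more, and 25.6% of Med1 sites a Jmjd1c site. For Carm1 the shares were 40.5% of Jmjd1c sites and 37.5% of Carm1 sites. Med1 sites cover 34189516 bp in all, against 2849845 bp for Jmjd1c. Of Jmjd1c sites at promoters 83.3% overlapped Med1 (81.7 to 84.8%), and at 59.6% Med1 was the only other factor. Outside promoters 32.1% overlapped both other factors, 27.5% Med1 only, 12.8% Carm1 only and 27.5% neither.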

How the data were processed

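Chromatin immunoprecipitation sequencing was done by the authors in NS5 cells with antibodies against Jmjd1c, Carm1, Med1 and IgG (1 library each). Per the submitters' processing notes and the study's methods, reads were aligned to mm9 with Bowtie 0.12.7, duplicates were removed (Picard 1.81 is named) and sites were called with MACS 1.4.2 against IgG. Each deposited list gives where a site starts and ends and no other measure. Whether a library pools several cultures was not given. The deposited enhancer table holds Med1 and IgG signal, the read density scaled by the authors to the mapped reads and summed over each region by ROSE, which was divided here by region length. No column of the authors' comparisons was used.

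Sites were placed by their midpoint on GENCODE vM1 genes, in the order promoter, exon, intron and intergenic, with Python 3.11.15, numpy 2.4.6 and numba 0.67.0, and plots were drawn with matplotlib 3.10.9. Genes with 1 symbol were counted once. Sites on the mitochondrial genome were left out of all shares. Motifs were searched on both strands. The scripts were tested on simulated data.

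The members and gene lists were chosen with earlier results of these data known. Named were the 15 genes with the most sites, those at the 10 widest sites, the 5 largest clusters and the 5 most distant sites, up to 4 members of each list with the most sites, and Jmjd1c, Carm1 and Med1. Other names, such as Socs3, Limd1, Gm20388, Fgfr2, Gm6772, Cuedc1, Sept9, Tex14, the list members without a site and the genes with TGACGTCA, were chosen after their values were seen. Sox1 was not matched in the annotation. Some items that this rule names are not reported here. Alternatives changed the promoter width, the TSSs, the cluster gap, the motif window, the gene assignment and the sites used. The measure of repeated sequence was added after the data had been seen.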

Additional observations from a re-analysis of the deposited data

How the results depend on the processing

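Of 79 alternatives over 20 results, 35 kept the value within its interval (counts, within 1.5 times) and 44 moved it further. With promoters reaching 1 or 2.5 kb, they held 24.1% or 28.4% of sites and 9.34% or 10.9% of genes had a promoter site. With TSSs of every annotated gene the promoter share was 28.8% and the median distance 11727.5 bp, and with only the 5′ end of each gene they were 21.1% and 29612 bp. With all annotated genes 35.9% of sites were intergenic. Without a promoter class, 41.1% of sites were intronic, 10.998% exonic and 47.9% intergenic. In the wider part of the list the promoter share was 20.4%, the intronic 35.2%, the intergenic 42.9%, the median width 406 bp, the median distance 23329.5 bp, the clustered share 11.6%, the genes with a promoter site 4.00%, the genes with 5 or more sites 43, CAGCTG 32.4% and TTGGC 53.8%. Without chromosomes 11 and 15 the promoter share was 24.8%, the intergenic 40.6%, the median distance 19896.5 bp, the clustered share 18.6% and the genes with a promoter site 8.98%. There the typical enhancers had a median Med1 signal of 300.6 per kb without a site, and an IgG signal of 149.2 with and 114.9 without one. Clusters held 8.52% of sites at gaps of 5 kb and 33.3% at 25 kb. Genes with 5 or more sites numbered 71 by gene body and 36 within 50 kb, against 165. Windows reaching 50 bp from the midpoint gave CAGCTG at 16.8%, TTGGC at 30.9% and SOX at 23.4% of distal sites, and whole sites 42.5%, 68.9% and 54.4%. The promoter difference from Carm1, 0.237 points (-1.09 to 1.56) over all sites, changed sign to -4.12 points in the 5000 widest sites and -1.13 points without repeated sites. Without repeated sites, 14.9% of histone genes had a promoter site, against 41.8%, and Sipa1l1 had 6 sites, against 11. No paired analysis was possible because each antibody had 1 library. The unknown depth and the missing heights limit every count of sites.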

Other observations

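The 4 mitochondrial sites of the list were 814, 382, 347 and 1194 bp wide, the last at positions 15040 to 16233 of the mitochondrial genome. In the nuclear genome 11 sites shared 32-base words with mitochondrial DNA. All words of a 257 bp site at Gm10925 and 98.2% of those of the 3146 bp site at Gm10222 stand there, and 68.8% and 57.6% of those of a pair of sites in Myo3a. Lower shares were found at Eea1 (52.4%), 1700019M22Rik (51.3%), Nxph1 (42.6%), Tyrp1 (39.9% and 28.2%), G6pd2 (35.7%) and Abcb11 (32.4%). The part of mitochondrial reads in these sites was not tested.

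Promoters of small RNA genes rarely held a Jmjd1c site. Of 1577 miRNA genes 39 had one (2.47%), of 1423 snRNA genes 40 (2.81%) and of 1552 snoRNA genes 21 (1.35%), against 10.1% of protein-coding genes. Pseudogenes had one at 45 of 5201 (0.865%).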
